A study of Mus musculus with 6 samples.

Results

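The nuclear genes of respiratory complex I were followed in the liver RNA of mice. Some had been exposed to the plasticizer DEHP, short for di(2-ethylhexyl) phthalate, and some had not. Members were the protein-coding entries of the deposited count table named Ndufa, Ndufb, Ndufc, Ndufs or Ndufv with a number, together with Ndufab1, which gave 37 genes among 42380 entries. They comprised 13 genes of group a, 10 of group b, 2 of group c, 8 of group s, 3 of group v and Ndufab1, and all 37 were among the 12468 genes that passed the low-count filter. There were 3 libraries from unexposed livers, called controls here, and 3 from exposed livers, whose columns carry the word High. The labels name no dose, duration, strain, age or sex, and no genetic change or other agent, and they do not say whether the libraries came from separate animals. The p-values therefore measure the spread between these samples, which may be technical.

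Complex I is the NADH dehydrogenase of the mitochondrial inner membrane. It takes electrons from NADH in its matrix arm, passes them through a flavin and a chain of iron-sulfur clusters to ubiquinone, and pumps protons through its membrane arm. The flavin and the clusters lie in core subunits of the matrix arm. The core subunits of that arm are nuclear, among them Ndufv1, Ndufv2, Ndufs1, Ndufs3, Ndufs7 and Ndufs8. Those of the membrane arm are encoded by mitochondrial DNA and were not analysed here. The other nuclear subunits are accessory and serve assembly and stability. Liver depends on the complex to reoxidise the NADH made by fatty acid oxidation and the citric acid cycle. Ndufa4 was first listed with complex I and is now placed with cytochrome c oxidase, as the description in the deposited table also has it, and Ndufab1 is the mitochondrial acyl carrier protein, which also serves lipoic acid synthesis.

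Total counts ran from 10410098 to 14229803 a library. Members held 230 to 6648 counts in each. For most of them counting error was small beside the spread between libraries, though not for the steadiest, such as Ndufa9 in exposed livers. Hepatocyte markers (8 of the 10 listed have a row) summed to 119856 to 162826 CPM (counts scaled to a common library size) in controls and 113910 to 146980 in exposed livers. Alb made 64373 to 108084 CPM of these sums. By log2 fold change of exposed over control, the single markers went both ways, 3 of 8 positive. At an unadjusted p of 0.05 (edgeR) Cyp2e1 (1.05) and Cps1 (0.73) were higher and Apoa1 (-0.69) lower. These were 37.5% of the list, where 13.1% of all genes passed in either direction. Control replicates 1 and 2 stood apart from the other 4 libraries. Their interferon-stimulated genes (21 of 23 listed had a row) summed to 4078 and 3136 CPM, against 396 in control replicate 3 and 361 to 418 in exposed livers. Kupffer cell and macrophage markers (11 of 12) summed to 871 and 800 CPM there, against 257 in control replicate 3 and 273 to 397 in exposed livers. Endothelial markers (10 of 10 tested) summed to 427, 424 and 503 CPM in controls and to 322, 221 and 408 CPM in exposed livers, without overlap. Their median log2 fold change was -0.51, with 9 of 10 negative, where 47.1% of all genes were positive. At an unadjusted p of 0.05 (edgeR) 4 were lower (40%), where 6.97% of all genes were lower and 13.1% passed in either direction. The Kupffer cell and macrophage markers had a median of -1.04, with 11 of 11 negative and 5 lower at that p (45.5%). Stellate cell markers had a median of -0.26, with 8 of 10 negative. The part of these cell types in the complex I values was not tested. Of 7 pancreas and gut markers 3 were at 0 in every library, whereas Lgals4 and Cela1 had counts in every library. Summed, the 7 made 71.9, 46.3 and 76.8 CPM in controls and 61.4, 36.9 and 49.2 CPM in exposed livers. Ctrb1 held 29 counts in control replicate 1 and 0 elsewhere. Of 6 muscle and heart markers 2 were at 0 in every library, while Tnnt2 held 66 counts in control replicate 1 and 7 to 38 elsewhere.

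No member differed past the threshold between exposed and control livers. With edgeR's quasi-likelihood test, 0 of 37 passed an adjusted p of 0.05, where 0.0722% of all genes tested did (0.0561% higher and 0.016% lower). Before adjustment, 3 members had a p under 0.05, all of them higher in exposed livers (8.11%), where 6.11% of all genes were called higher, 6.97% lower and 13.1% in either direction. DESeq2 and limma-voom also called 0 members after adjustment, with 4 and 3 members at an unadjusted p of 0.05 (10.8% and 8.11%). In those fits 13.4% and 12.6% of all genes had such a p, in either direction. The smallest adjusted p was 0.282, and the fitted fold changes lay between 0.748 and 1.51 on the linear scale. In bulk liver, fewer cells of a type and less RNA per cell cannot be told apart.

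Small positive values were the more common. The median log2 fold change of exposed over control was 0.11 over the 37 members, against -0.03 over all genes tested, and 27 of 37 values were above 0 (73.0%), where 47.1% of all genes were. The groups did not overlap for 7 members (18.9%), all of them higher in exposed livers, where 9.17% of all genes were separated in that direction, 8.57% in the other and 17.7% in either. Among them were Ndufa7, Ndufb2, Ndufb9, Ndufs4, Ndufv1 and Ndufv2. The median depended on single libraries: leaving out control replicate 1 gave 0.20, control replicate 2 gave 0.04, control replicate 3 gave 0.21 and DEHP replicate 1 gave 0.18. The number of members at an unadjusted p of 0.05 was 1 when control replicate 1, control replicate 2 or DEHP replicate 2 was left out, and was 6 when control replicate 3 or DEHP replicate 1 was. The share over all genes moved too: members stood at 2.7% where all genes, in either direction, stood at 7.42%, 10.6% and 7.41%, and at 16.2% where all genes stood at 16% and 14.3%. Without both control replicates 1 and 2, which leaves 1 control library, the members' median was 0.05, against 0.02 over all genes tested. No member passed the adjusted threshold with any library left out.

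**Figure D1:**
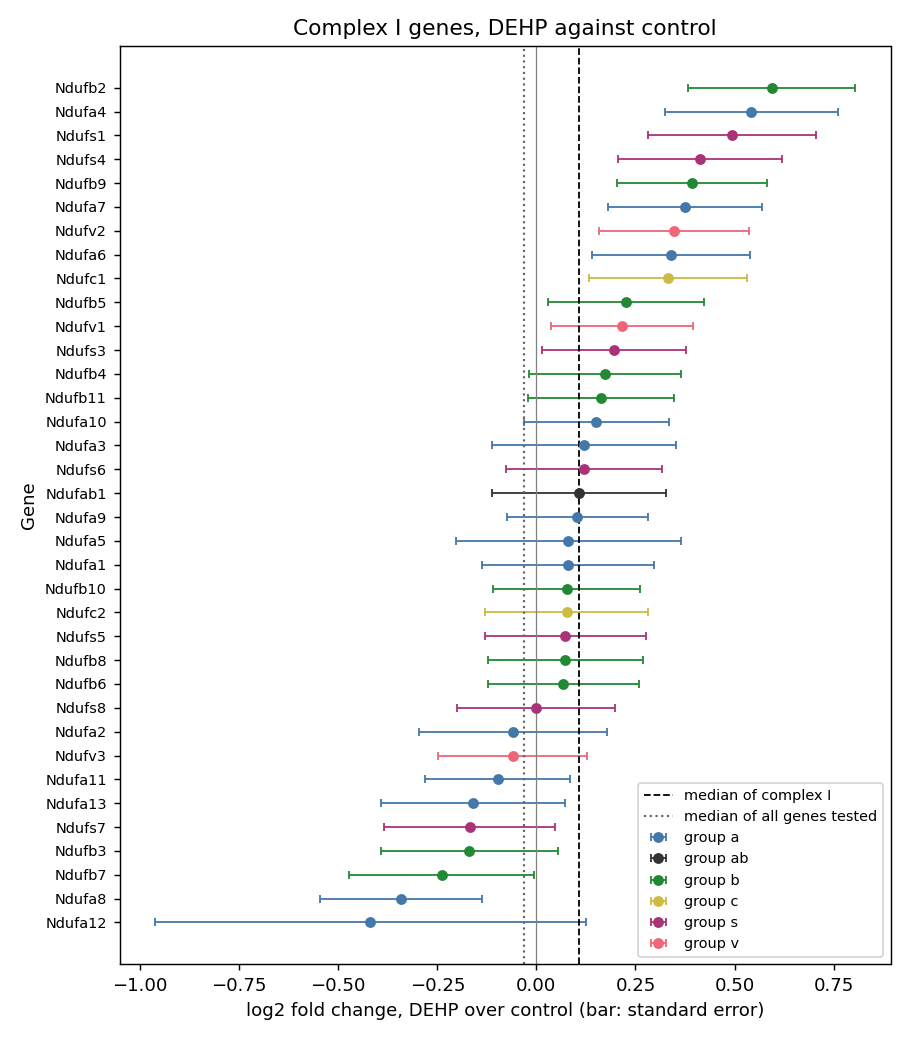
Log2 fold change of exposed over control livers for 36 of the 37 genes, coloured by subunit group, with standard errors as bars, the complex I median (0.11) as a dashed line and the median of all genes tested (-0.03) as a dotted line. Ndufb2 lies highest at 0.59 and Ndufa12 lowest at -0.42 with the widest bar.

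Promoters of 3 members are shown because Ndufb2 had the highest fold change, Ndufa8 and Ndufb7 were among the 4 lowest, and Ndufa8 and Ndufb7 hold matches to motifs of factors known to act on respiratory chain genes. Each is the 250 bases before the RefSeq start in GRCm38.p6, 5′ to 3′ on the gene's strand, with motif matches in capitals.
Ndufb2: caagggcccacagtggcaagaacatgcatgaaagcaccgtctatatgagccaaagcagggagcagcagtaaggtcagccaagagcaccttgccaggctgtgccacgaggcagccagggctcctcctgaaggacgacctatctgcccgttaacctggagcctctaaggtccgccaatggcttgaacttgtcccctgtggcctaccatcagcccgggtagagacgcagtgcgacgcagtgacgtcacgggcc
Ndufa8: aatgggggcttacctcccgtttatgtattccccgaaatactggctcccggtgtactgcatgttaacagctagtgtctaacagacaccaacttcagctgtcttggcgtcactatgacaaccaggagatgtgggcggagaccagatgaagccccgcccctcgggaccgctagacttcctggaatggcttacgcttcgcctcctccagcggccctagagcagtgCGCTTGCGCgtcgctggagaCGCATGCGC
Ndufb7: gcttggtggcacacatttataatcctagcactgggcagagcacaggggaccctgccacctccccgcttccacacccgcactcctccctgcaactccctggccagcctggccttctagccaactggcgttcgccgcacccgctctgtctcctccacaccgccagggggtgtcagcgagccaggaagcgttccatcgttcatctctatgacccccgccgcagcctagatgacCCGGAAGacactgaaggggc

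These lie at chr6:39592315-39592564 on the plus strand for Ndufb2, chr2:36049339-36049588 on the minus strand for Ndufa8 and chr8:83566508-83566757 on the plus strand for Ndufb7. The first matched base lies 29 and 9 bases before the start for the pair of NRF1 matches in Ndufa8, and 20 bases before it for the ETS match in Ndufb7. Of the 37 members, 33 had a promoter entry, with 35 entries in all. A member counted once if any of its entries matched, whereas the shares over all promoters are per entry. The NRF1 motif GCGCANGCG, read on both strands, was found in 6 of these 33 (Ndufa5, Ndufa8, Ndufa11, Ndufb4, Ndufs5 and Ndufs6), or 18.2%, against 5.16% of all 32851 promoter entries. The ETS motif CCGGAAG was found in 3 (Ndufb6, Ndufb7 and Ndufs3), or 9.09%, against 6.91%. The YY1 motif AAGATGGCG and the ERR motif TCAAGGTCA were found in 0 of 33, and in 0.606% and 0.387% of all entries. A match describes these letters in this window only.

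Among the core subunits that carry electrons, NADH is first met by the flavin protein Ndufv1. It stood at 214, 213 and 233 CPM in controls and at 239, 254 and 273 CPM in exposed livers, groups that did not overlap, with a log2 fold change of 0.22 ± 0.18 (SE, edgeR adjusted p = 0.655), or 0.43 with a correction for GC content. Ndufv2, its partner with an iron-sulfur cluster, stood at 152, 138 and 145 CPM in controls and at 173, 220 and 162 CPM in exposed livers. All exposed libraries again lay above all controls, DEHP replicate 2 farthest (log2 fold change 0.35 ± 0.19, adjusted p = 0.453, and 0.22 without that library). Ndufs1, the largest subunit, which holds several clusters of the chain, stood at 49.1, 63.0 and 59.7 CPM in controls and at 59.5, 90.2 and 91.9 CPM in exposed livers. DEHP replicate 1 lay among the controls and the other two exposed libraries above them (0.49 ± 0.21, unadjusted p = 0.0354, adjusted p = 0.356). Its annotated span, chromosome 1 from 65715909 to 65752971 in the table's C57BL/6NJ coordinates, overlaps Eef1b2 on the opposite strand. In counts not scaled to library size, Eef1b2 held 2037 to 2362 across controls against 1684, 3235 and 2723 after exposure. On that scale Ndufs1 held 674 to 797 across controls against 588, 1034 and 1082. DEHP replicate 1, the first of the exposed values, had the smallest total, 10410098 counts. Since the counting is not stated to use strand, reads of the 2 genes cannot be told apart where they overlap.

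Ndufs3, Ndufs7 and Ndufs8, also core subunits, gave smaller or mixed values. Ndufs3 stood at 98.9, 98.1 and 119 CPM in controls and at 114, 122 and 126 CPM in exposed livers, where control replicate 3 overlapped (0.20 ± 0.18, adjusted p = 0.692). Ndufs3 was at 0.32 without that library, 0.34 with the GC correction and 0.033 without both control replicates 1 and 2. Ndufs7, which carries the last cluster of the chain, stood at 317, 210 and 223 CPM in controls and at 264, 185 and 219 CPM in exposed livers. Control replicate 1 was its highest library and the groups were mixed (-0.17 ± 0.22, adjusted p = 0.786). Ndufs8, which carries a pair of clusters, stood at 152, 122 and 131 CPM in controls and at 165, 122 and 118 CPM in exposed livers. Its log2 fold change was -0.0013 ± 0.20 (adjusted p = 0.998), and 0.01 with RLE scaling.

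Over the 7 core subunits the median log2 fold change was 0.22, 5 of 7 were positive and 3 had groups that did not overlap, where 47.1% of all genes were positive and 9.17% were separated as higher (17.7% in either direction). Summed, they made 1262, 1103 and 1219 CPM in controls and 1335, 1317 and 1331 CPM in exposed livers. The exposed libraries were close to each other and above all controls. The 29 accessory subunits without Ndufa4 had a median of 0.08, with 21 positive and 4 that did not overlap. By position in the complex, the 16 subunits placed in the matrix arm had a median of 0.16 (11 positive) and the 19 placed in the membrane arm 0.08 (14 positive). These contrasts between sets of subunits are descriptions and were not tested.

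**Figure D2:**
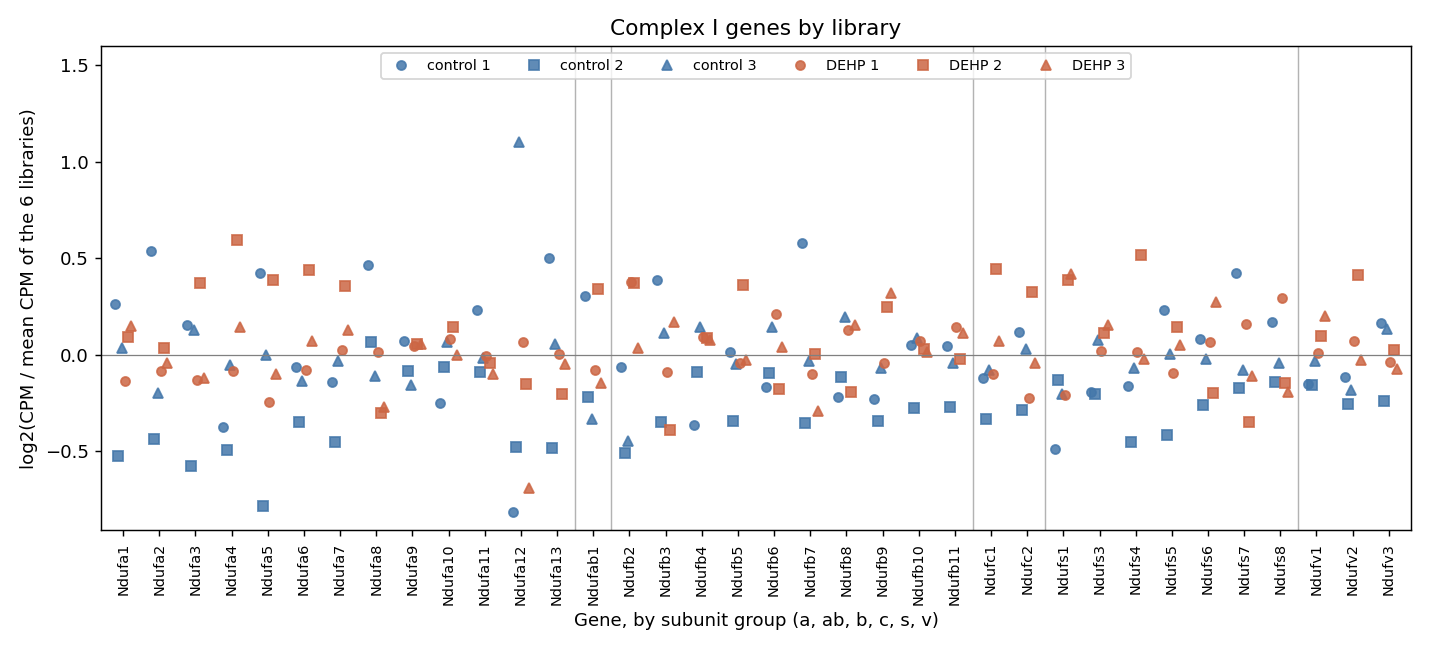
The level of 36 of the 37 genes in each library, as log2 of its CPM over its own mean in the 6 libraries, with controls in blue and exposed livers in orange and a symbol per replicate. Control replicate 2 (blue squares) is the lowest library for 23 of the 36 genes drawn, and control replicate 3 stands far above the others for Ndufa12.

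By the subunit groups of the nomenclature, the median log2 fold change was 0.08 in group a (8 of 13 positive), 0.12 in group b (8 of 10), 0.20 in group c (2 of 2), 0.16 in group s (6 of 8) and 0.22 in group v (2 of 3). Except in group v, leaving out 1 library moved these medians by over 1.5 times. Group c was 0.045 without DEHP replicate 2, 0.11 without control replicate 2 and 0.34 without DEHP replicate 1. Group s was 0.091 without control replicate 2. In group b the median became 0.060 when control replicate 2 was dropped, and 0.22 when control replicate 3 was. Group a was 0.24, 0.14 and 0.17 when control replicate 1, control replicate 3 and DEHP replicate 1, in that order, were left out. It turned negative without control replicate 2 (-0.11) or DEHP replicate 2 (-0.06), and group b without both control replicates 1 and 2 (-0.04). In group a, Ndufa6, an accessory subunit of the matrix arm, had the highest level per length of all members, 461 CPM per kilobase of gene model. It stood at 247, 202 and 234 CPM in controls and at 244, 349 and 271 CPM in exposed livers, with DEHP replicate 1 among the controls (log2 fold change 0.34 ± 0.20, adjusted p = 0.492). Without DEHP replicate 2 it was 0.19. Ndufa2, also of the matrix arm and next in level per length after Ndufb9 at 342 CPM per kilobase, stood at 284, 145 and 170 CPM in controls and at 185, 201 and 190 CPM in exposed livers. Control replicates 1 and 2 were its extremes, with all exposed libraries between them (-0.06 ± 0.24, adjusted p = 0.944, and 0.0029 with limma-voom). Ndufa8, an accessory subunit of the membrane arm that faces the intermembrane space, stood at 260, 198 and 175 CPM in controls and at 190, 153 and 156 CPM in exposed livers. DEHP replicate 1 lay between the controls and the other two exposed libraries below all of them (-0.34 ± 0.20, adjusted p = 0.50). The value was -0.16 without control replicate 1, -0.18 with a correction for GC content and -0.060 without both control replicates 1 and 2.

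Ndufa4, the cytochrome c oxidase subunit, had the second highest fold change of the rule's members. It stood at 296, 273 and 371 CPM in controls and at 363, 580 and 426 CPM in exposed livers. DEHP replicate 2 was far above the rest and DEHP replicate 1 just below control replicate 3 (log2 fold change 0.54 ± 0.22, unadjusted p = 0.0261, adjusted p = 0.333). Without DEHP replicate 2 the value was 0.34, and without both control replicates 1 and 2 it was 0.32. Without Ndufa4 the median of the other 36 was again 0.11. Of them 2 were higher at an unadjusted p of 0.05 (edgeR, 5.56%), where 6.11% of all genes were called higher and 13.1% in either direction. Ndufab1, the acyl carrier protein, stood at 95.8, 66.5 and 61.6 CPM in controls and at 73.2, 98.0 and 70.0 CPM in exposed livers. Control replicate 1 lay among the exposed libraries and the other controls lay below them (0.11 ± 0.22, adjusted p = 0.877).

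Ndufa12, an accessory subunit of the matrix arm, varied most between libraries, by 3.78 times from lowest to highest. It stood at 22.1, 27.9 and 83.6 CPM in controls and at 40.7, 35.0 and 24.1 CPM in exposed livers. Control replicate 3 alone was high, and the log2 fold change of -0.42 ± 0.54 (adjusted p = 0.796) became 0.43 without it and -1.32 without control replicates 1 and 2. A processed pseudogene entry on chromosome 5 that the table describes as Ndufa12 held 26.6, 26.3 and 17.0 CPM in controls and 33.0, 55.3 and 46.2 CPM in exposed livers. It was lowest in control replicate 3, the library in which the gene itself was highest. Such copies share sequence with the gene, so how counting divided reads between the entries is uncertain. Summed over both, the level was 48.7, 54.2 and 101 CPM in controls and 73.7, 90.3 and 70.3 CPM in exposed livers, still highest in control replicate 3 and overlapping (two-sided exact permutation p = 0.6, smallest possible 0.1).

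**Figure D3:**
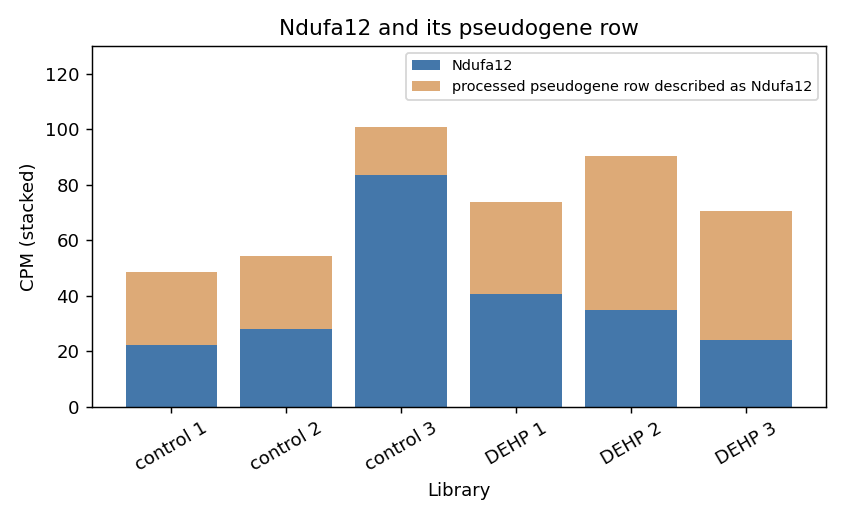
CPM of Ndufa12 (blue) and of the processed pseudogene entry described as Ndufa12 (tan), stacked, in each library. The gene reaches 83.6 CPM in control replicate 3 and 22.1 to 40.7 CPM elsewhere, while the pseudogene entry is lowest there at 17.0 CPM.

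Other entries also carried the names of subunits in their descriptions. There were 39 of them outside the members, 34 of them processed pseudogenes, and 28 had no count in any library. Only 3 held at least 100 counts over all libraries: the Ndufa12 copy, a copy of Ndufs3 and an unnamed locus on chromosome 12 described as Ndufb1. The Ndufs3 copy held 40.7, 26.6 and 23.7 CPM in controls and 26.8, 35.7 and 29.8 CPM in exposed livers. With its copies added, Ndufs3 came to 136 ± 9.60 CPM in controls and 151 ± 8.87 CPM in exposed livers (SD, n = 3, two-sided exact permutation p = 0.2, smallest possible 0.1). The locus described as Ndufb1, a small membrane arm subunit with no row under its own symbol, held 38.3, 23.9 and 29.3 CPM in controls and 18.2, 52.1 and 29.6 CPM in exposed livers. Both its lowest and its highest value were in exposed livers.

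In group b, Ndufb2, a small accessory subunit of the membrane arm, had the largest fold change of the members. It stood at 26.6, 19.5 and 20.4 CPM in controls and at 36.1, 35.9 and 28.5 CPM in exposed livers. All exposed libraries lay above all controls (log2 fold change 0.59 ± 0.21, unadjusted p = 0.0137, adjusted p = 0.282), and the value stayed between 0.51 and 0.75 in every alternative run. It was also the lowest member per length, at 4.94 CPM per kilobase of a gene model of 5628 bases, which may hold sequence outside the short coding transcript. Its span, chromosome 6 from 38934297 to 38945626, overlaps Braf on the opposite strand. In counts not scaled to library size, Braf held 151 to 158 across controls against 127, 196 and 194 after exposure. On that scale Ndufb2 held 230 to 375 across controls against 356, 412 and 335. Ndufb9, the second highest member per length at 382 CPM per kilobase, stood at 212, 196 and 237 CPM in controls and at 242, 295 and 310 CPM in exposed livers. Its groups did not overlap (0.39 ± 0.19, adjusted p = 0.399).

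The other 2 members of group b among the lowest fold changes were led by control replicate 1. Ndufb7, an accessory subunit on the intermembrane side, stood at 225, 118 and 148 CPM in controls and at 141, 152 and 123 CPM in exposed livers. Only control replicate 1 was apart (log2 fold change -0.24 ± 0.23, adjusted p = 0.708), and the value was 0.06 without it and 0.09 with a correction for GC content. Ndufb3, an accessory subunit of the membrane arm, stood at 85.5, 51.4 and 70.7 CPM in controls and at 61.4, 49.9 and 73.4 CPM in exposed livers, with the groups mixed (-0.17 ± 0.22, adjusted p = 0.793). In group s, Ndufs4, an accessory subunit of the matrix arm whose loss is known to impair assembly, stood at 75.8, 62.0 and 80.9 CPM in controls and at 85.9, 122 and 83.7 CPM in exposed livers. The groups did not overlap, with DEHP replicate 2 well above the rest (0.41 ± 0.21, adjusted p = 0.419), and without that library the value was 0.23.

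A further 19 members had log2 fold changes from -0.16 to 0.38 and adjusted p-values from 0.430 to 0.937. Of these, Ndufa7, at 104 to 139 CPM in controls and 145 to 182 CPM in exposed livers, had the largest value and was the sole one whose groups did not overlap (0.38 ± 0.19). Ndufa9 was the steadiest member, with its highest library 1.17 times its lowest. The ratio of highest to lowest library was under 2 for 34 of the 37 members, the exceptions being Ndufa4, Ndufa5 and Ndufa12. Within groups, the median SD of log2 CPM over members was 0.21 in controls and 0.19 in exposed livers, against 0.31 and 0.30 over all genes tested, which include many less abundant genes.

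The extreme libraries were often the same from member to member. Control replicate 2 was the lowest library for 24 of 37 members and the highest for 0. Control replicate 1 was the highest library for 12, among them Ndufa1, Ndufa2, Ndufa8, Ndufa13, Ndufb7 and Ndufs7, and DEHP replicate 2 for 11, among them Ndufa4, Ndufa6, Ndufs4 and Ndufv2. The median deviation of the members from their own 6-library mean, on the log2 CPM scale, was 0.05, -0.27 and -0.01 in controls and 0.03, 0.10 and 0.05 in exposed livers. Complexes II to V, with 39 genes tested, lay at -0.32 in control replicate 2 too, and at 0.27 in DEHP replicate 2. Control replicates 1 and 2 shared the high interferon-stimulated and macrophage levels. Their medians over all members differed, at 0.05 and -0.27. For the core subunits both were low, at -0.13 and -0.15, against -0.03 in control replicate 3 and 0.08, 0.10 and 0.16 in exposed livers. The part of interferon-stimulated or macrophage levels in the complex I values was not tested.

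**Figure D4:**
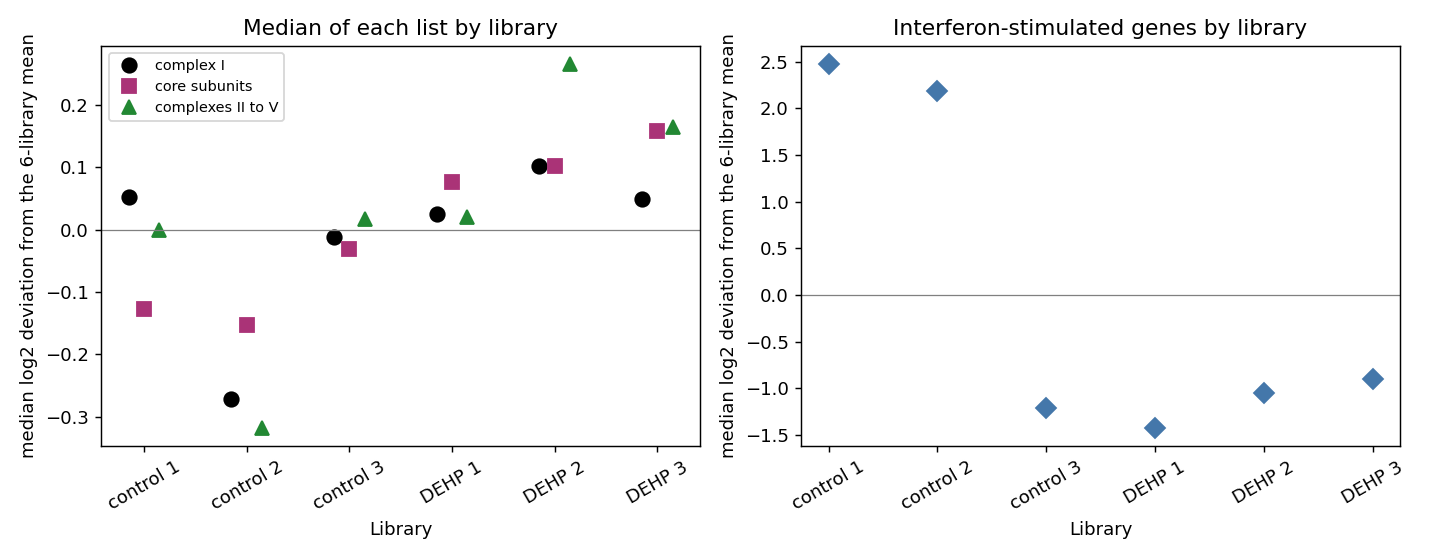
Left, median log2 deviation from the 6-library mean in each library for complex I (circles), its core subunits (squares) and complexes II to V (triangles). Right, the same median for interferon-stimulated genes on a wider axis. Control replicate 2 is lowest for the respiratory lists, at -0.27 for complex I, while control replicates 1 and 2 are both high for interferon-stimulated genes, at 2.47 and 2.18.

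Levels moved with the GC content of the transcripts, most of all in DEHP replicate 2. Over the 37 members, the deviation in DEHP replicate 2 had a Spearman correlation of -0.49 with transcript GC content, and over 11001 genes with a value it was -0.50. In the other 5 libraries the members' correlation lay between -0.22 and 0.25. Over all genes it was 0.28 in control replicate 1, 0.24 in control replicate 3 and -0.02 to 0.07 in the remaining 3. With transcript length the members' correlation was 0.46 in DEHP replicate 1 and 0.38 in control replicate 2, and -0.22 to -0.07 in the other 4 libraries. All points of a library share its preparation and depth, so these are descriptions. With a per-library correction for GC content, chosen after the data were seen, 34 of 37 members were positive, their median was 0.22 against 0.03 for all genes, and 6 had an unadjusted p under 0.05, all higher. These 6 were 16.2% of members, and 13.1% of all genes passed in that fit, in either direction. Again 0 passed the adjusted threshold (edgeR, smallest adjusted p = 0.228).

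**Figure D5:**
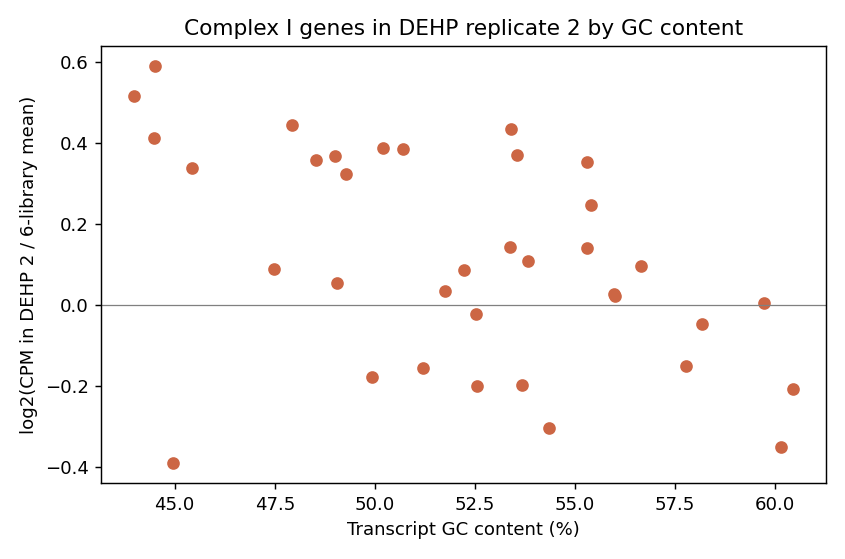
Level of 36 of the 37 genes in DEHP replicate 2, as log2 of CPM over the 6-library mean, against the GC content of its transcripts in percent. Genes of lower GC content tend to lie higher in this library, with a Spearman correlation of -0.49 across all 37.

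Genes that build or supply the complex were followed next. Of 20 assembly factors listed, 16 had a row and 15 were tested, with a median log2 fold change of 0.07, 9 of them positive, and 0 past the adjusted threshold (edgeR, 3 higher at an unadjusted p of 0.05, where 6.11% of all genes were called higher and 13.1% in either direction). These 3 were Ndufaf2, Nubpl and Tmem70. Nubpl, which delivers iron-sulfur clusters to the complex, stood at 4.32, 3.40 and 3.10 CPM in controls and at 4.15, 7.94 and 10.8 CPM in exposed livers, where DEHP replicate 1 lay among the controls (1.08 ± 0.39, adjusted p = 0.290). Ndufaf2, a chaperone of late assembly, stood at 12.6 to 14 CPM in controls and at 18.9, 23.9 and 15.3 CPM in exposed livers, which did not overlap (0.56 ± 0.24, adjusted p = 0.350). The 16 assembly factors together made 360 to 364 CPM in controls and 392 to 396 CPM in exposed livers. Ecsit, the most abundant of them by CPM, had 0.04 ± 0.18 (adjusted p = 0.955).

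Iron-sulfur cluster assembly genes, 15 of 16 tested, had a median of 0.16 with 10 positive and 0 at either threshold (edgeR). Hspa9, the mitochondrial chaperone of cluster transfer, stood at 339, 427 and 424 CPM in controls and at 456, 581 and 537 CPM in exposed livers, without overlap (0.40 ± 0.19, adjusted p = 0.393). Isca1, a late carrier of clusters, had 0.47 ± 0.23 (adjusted p = 0.408). Other routes of electrons to ubiquinone and NADH, including ubiquinone synthesis, gave a median of 0.22 over 17 genes with 14 positive and 2 higher at an unadjusted p of 0.05, Nnt and Coq9 (edgeR, 0 after adjustment). Nnt, the nicotinamide nucleotide transhydrogenase, stood at 25.9, 37.6 and 45.1 CPM in controls and at 51.2, 61.9 and 55.0 CPM in exposed livers (0.63 ± 0.22, adjusted p = 0.272). The exposed libraries lay above all controls, and control replicate 1 was the lowest. Coq9, a ubiquinone synthesis protein, had 0.42 ± 0.19 (adjusted p = 0.376), and Etfa, a subunit of the electron transfer flavoprotein and the most abundant of the list by CPM, 0.41 ± 0.19 (adjusted p = 0.386). Complexes II to V had a median of 0.22, with 31 of 39 positive, and 6 higher at an unadjusted p of 0.05 (15.4%), against 47.1% positive, 6.11% called higher and 13.1% called in either direction over all genes. Sdhd and Cox7a2 had the smallest p. Sdhd, a membrane anchor of complex II, had 0.71 ± 0.23 (adjusted p = 0.236) and Cox7a2, a subunit of complex IV, 0.74 ± 0.23 (adjusted p = 0.226). By the same rule, Sdha (0.42) and Sdhb (0.22) were taken from complex II, Uqcrfs1 (0.47), Uqcrh (0.50) and Uqcrq (0.06) from complex III, Cox5a (0.53) and Cox4i1 (0.11) from complex IV, and Atp5c1 (0.41), Atp5b (0.45) and Atp5a1 (0.38) from complex V. Whether complex I differed from these complexes was not tested.

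Factors that regulate respiratory chain genes had values in both directions. Over 11 tested the median was -0.14, with 5 positive, and 0 passed after adjustment (edgeR). Tfb2m, a transcription factor of mitochondrial DNA, was the sole one at an unadjusted p of 0.05, at 12.5, 13.1 and 12.2 CPM in controls and 22.1, 30.1 and 24.2 CPM in exposed livers. The exposed libraries lay well above the tightly grouped controls (1.01 ± 0.22, adjusted p = 0.129). Nrf1, nuclear respiratory factor 1, had -0.31 ± 0.28 (adjusted p = 0.680), and Gabpa, an ETS factor, 0.42 ± 0.23 (adjusted p = 0.452), both with overlapping groups. Yy1, the most abundant of the list by CPM, had 0.10 ± 0.19 (adjusted p = 0.874). Of 7 stress and hypoxia genes tested, Bnip3, a mitophagy receptor, stood at 129, 161 and 150 CPM in controls and at 303, 394 and 246 CPM in exposed livers, without overlap (1.10 ± 0.21, adjusted p = 0.120). Pdk1, a kinase that restrains pyruvate dehydrogenase, had 0.56 ± 0.23 (adjusted p = 0.339) and Ldha, lactate dehydrogenase A, -0.19 ± 0.21 (adjusted p = 0.744).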

How the data were processed

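The authors deposited 1 table of whole-number counts per gene for 6 libraries of polyadenylated liver RNA. The kit keeps strand information, per the labels' protocols. The submitters' processing notes name the build GRCm38.p6, whereas gene identifiers and coordinates in the table are those of the C57BL/6NJ annotation. Aligner, counter and strand setting: not given in the sources used here. Since the design text concerns another assay and cell type, sample titles set the groups. Gene lengths, as deposited, served only for CPM per kilobase.

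Loci lacking a gene name (1284 of 42380, holding 2.73% to 4.28% of counts) were kept out of library sizes and tests. The test was edgeR's robust quasi-likelihood fit (edgeR 4.0.16, R 4.3.3; filterByExpr at a minimum count of 10, TMM, 2 groups of 3 libraries, two-sided). Over the 12468 genes, p-values were adjusted after Benjamini and Hochberg, and 0.05 was the threshold. Standard errors come from its F statistic. The script was tested on simulated data. Replicates were distinct libraries, since their counts differed by far more than counting error (chi-square of 31.1 to 79.6 for each degree of freedom). Members and gene lists were chosen with earlier results of these data known, so lists are described without a test. One member is not reported singly here but counts in every total. Values by library are given for the other core subunits, Ndufab1, Ndufa4, the 4 highest and 4 lowest fold changes, the 4 smallest p-values, and the 3 highest and 3 lowest levels per length. From each other list come the 2 genes with the smallest p-values and the most abundant one; Nrf1 and Tmem70 were named after their values were seen. Alternatives comprised RLE scaling, removing or changing the filter (mean CPM of 1), limma-voom (limma 3.58.1), DESeq2 1.42.0, no robust step, blocking on replicate number, adding unnamed loci, and dropping libraries. A GC correction (per-library loess on the median GC content of each gene's GENCODE coding transcripts, used as offsets) was added after the data were seen. Promoters are RefSeq entries in GRCm38.p6.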

Additional observations from a re-analysis of the deposited data

How the results depend on the processing

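No complex I gene passed an adjusted p of 0.05 under any of 18 alternatives. Of 666 single-member values, 612 kept their direction and 54 changed sign, in 19 members; the other 18 members kept theirs throughout. The number of all genes past the threshold (9 in the fit described) was 496 with no low-count filter, 272 with DESeq2, 5 with the GC correction and replicate block, 0 without both control replicates 1 and 2, and 5 to 400 with 1 library left out. Members higher at an unadjusted p of 0.05 numbered 6 with the GC correction (16.2%, where 13.1% of all genes passed in either direction). They numbered 5 with that correction and the block (13.5%, where 12.2% of all genes passed). With 1 library left out they numbered 1 to 6 (2.7% to 16.2%, where 7.41% to 16% of all genes passed). Replicate numbers did not pair the libraries (correlations of same-numbered deviations -0.02, 0.06 and -0.03, no better than across numbers). With the number as a block, 6 genes passed the adjusted threshold. In that fit 3 members were higher at an unadjusted p of 0.05 (8.11%, where 13.6% of all genes passed in either direction). Group medians were -0.042 in b and 0.073 in s without both control replicates, 0.26 in s with the GC correction and 0.26 with the block added, and -0.11 to 0.24 in a with 1 library left out. With the GC correction, then with the block added, values that turned positive were 0.021 and 0.080 in Ndufa2, 0.16 and 0.15 in Ndufa11, 0.16 and 0.19 in Ndufa13, 0.091 and 0.086 in Ndufb7, 0.12 and 0.13 in Ndufs7, 0.24 and 0.22 in Ndufs8, and 0.15 and 0.15 in Ndufv3. Without both control replicates 1 and 2, values were 0.18 in Ndufa2, -0.056 in Ndufa3, -0.048 in Ndufb4, -0.098 in Ndufb6, -0.15 in Ndufb8, -0.035 in Ndufb10, 0.0048 in Ndufs7 and 0.053 in Ndufs8. Ndufa2 was 0.0037 with the replicate block and 0.0029 with limma-voom; Ndufs8 was 0.013 with RLE scaling, 0.012 with a mean of at least 1 CPM, 0.011 with unnamed loci, 0.013 with the genes that have a GC value, 0.012 with DESeq2 and 0.028 with no filter. Leaving out 1 library at a time gave ranges of -0.11 to 0.26 in Ndufa1, -0.24 to 0.29 in Ndufa2, -0.079 to 0.25 in Ndufa3, -0.18 to 0.38 in Ndufa5, -0.16 to 0.0028 in Ndufa11, -0.74 to 0.43 in Ndufa12, -0.37 to 0.11 in Ndufa13 and -0.048 to 0.33 in Ndufab1. In the remaining groups they were -0.34 to 0.014 in Ndufb3, -0.0075 to 0.19 in Ndufb6, -0.43 to 0.063 in Ndufb7, -0.011 to 0.22 in Ndufb8, -0.027 to 0.16 in Ndufb10, -0.082 to 0.21 in Ndufc2, -0.082 to 0.23 in Ndufs5, -0.29 to 0.040 in Ndufs7, -0.15 to 0.092 in Ndufs8 and -0.18 to 0.016 in Ndufv3. The cause of these shifts was not tested. With 3 libraries a group, the members' standard errors were 0.18 to 0.54, so small differences were not detectable here.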
